A study of Mus musculus with 8 samples.

Results

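Immune cells of the embryonic mouse kidney were described here as the cells of a single-cell RNA sequencing pool that carried the common myeloid and leukocyte transcripts *Tyrobp*, *Fcer1g* and *Ptprc*. The cells compared were kidney cells of 4 male embryos, 2 *Trim28* Δ/Δ (mice 1 and 2) and 2 *Trim28* f/f (mice 3 and 4), which the labels place at embryonic day 17.5 and the methods of the study at a later embryonic day. *Trim28* encodes a co-repressor that recruits heterochromatin factors. In the Δ/Δ embryos its floxed segment was removed by a Cre recombinase expressed from *Six2*, a gene of nephron progenitors, so that immune cells lie outside the targeted lineage. The f/f embryos carried the floxed alleles without the deletion. Kidneys were dissociated in the cold with a bacterial protease, and each mouse was marked with its own tag oligonucleotide before pooling, so that all values below come from 1 library with 2 mice per genotype.

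The tags are shown because they alone assign a cell to a mouse and genotype. Each is a designed DNA sequence of 15 bases, given 5′ to 3′.
Mouse 1, *Trim28* Δ/Δ: cgcgatatggtcgga
Mouse 2, *Trim28* Δ/Δ: cggattccacatcat
Mouse 3, *Trim28* f/f: aagatgaggtctgtg
Mouse 4, *Trim28* f/f: aagctcgttggaaga

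A cell entered the group when its barcode passed a fixed minimum depth in gene UMIs (unique molecular identifiers, each counting 1 captured transcript; the shallowest cell held 6927), held 200 genes or more and had no more than 10% of its UMIs from mitochondrial genes, when 1 listed tag took at least 80% of at least 50 tag counts, and when *Tyrobp*, *Fcer1g* and *Ptprc* summed to at least 4 UMIs. The rule selected 248 of 6495 cells assigned to the 4 mice, namely 51 of 1168 in mouse 1, 68 of 1289 in mouse 2, 80 of 2490 in mouse 3 and 49 of 1548 in mouse 4. Before tags were read, 908 of the 19273 barcodes past the quality filter reached the marker sum. Of these, 460 carried several tags and 200 carried a single tag that the tag list does not name, and neither set was used. Over all barcodes past the filter, 3603 carried a single unlisted tag, so that the pool also held cells that the list assigns to no mouse. *Tyrobp* and *Fcer1g* encode adaptor proteins that pass signals from activating and Fc receptors through ITAM motifs, and *Ptprc* encodes the leukocyte phosphatase CD45. Since the rule used these 3 genes, their levels are description only.

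Macrophages are the first and most numerous immune cells of the fetal kidney. They descend from yolk sac and fetal liver progenitors, depend on signalling through the receptor *Csf1r*, engulf dying cells and cell debris and secrete complement component C1q, whose chains are encoded by *C1qa*, *C1qb* and *C1qc*. Lymphocytes and mast cells are rare at this stage, while monocytes and granulocytes arrive through the blood.

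The marker sum separated 2 kinds of cells. Just outside the threshold, 82 cells had a sum of 3 and 230 a sum of 2. Just inside it, 40 cells had a sum of 4, 18 of 5, 7 of 6 and 7 of 7, while 18 cells had a sum of 8 to 40 and 158 a sum above 40. The cells are therefore described below as 176 marker-rich cells (sum of at least 8 UMIs; 31, 41, 74 and 30 cells in mice 1 to 4) and 72 marker-poor cells (sum of 4 to 7 UMIs; 20, 27, 6 and 19 cells). Marker-rich cells had a median sum of 71 UMIs, of which *Ptprc* supplied 6.06% of all marker UMIs.

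The marker-poor cells went against the label of immune cells. Their median depth was 36541 UMIs and 6566 genes, against 14156 UMIs and 3566 genes in marker-rich cells and 17134 UMIs in the 6247 other cells. *Ptprc* made up 92.1% of their marker UMIs, at 105 CPM (UMIs of a gene scaled to 1000000 gene UMIs of the group), whereas *Tyrobp* stood at 2.01 CPM, next to 2.44 CPM in the other cells. *Aqp2*, the water channel of the collecting duct, reached 1372 CPM in the marker-poor cells, against 207 CPM in the other cells, and 39 of the 72 cells held at least 10 *Aqp2* UMIs. Only 1 of the 72 had at least 4 UMIs of the C1q genes together. No cell type name is given to them, and the comparisons of genotypes below are given with and without them, while levels are those of the marker-rich cells and the clusters hold all 248 cells.

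**Figure D1:**
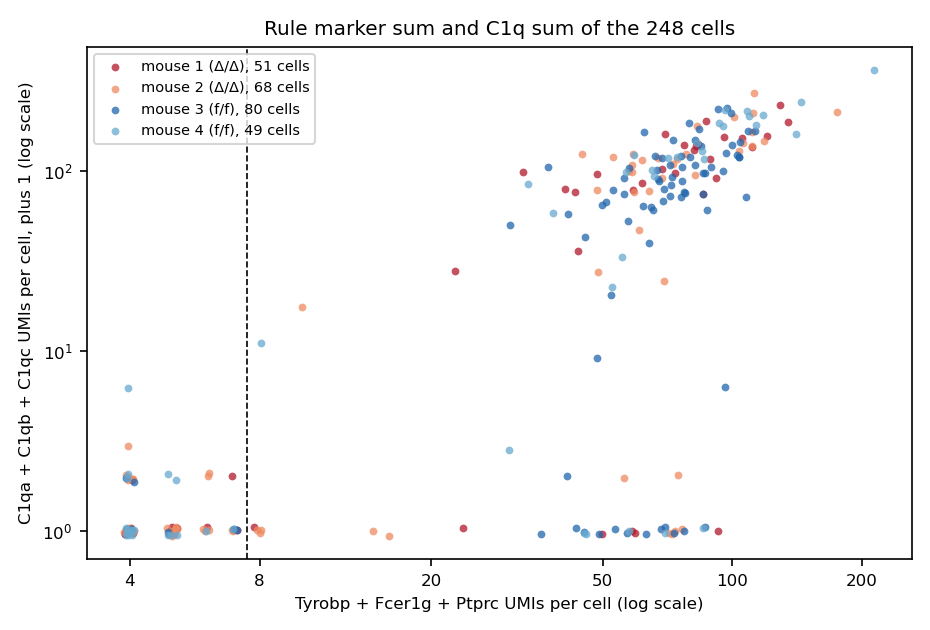
Each point is 1 of the 248 cells, coloured by mouse, with the summed UMIs of *Tyrobp*, *Fcer1g* and *Ptprc* on the horizontal axis (log scale) and the summed UMIs of the 3 C1q genes plus 1 on the vertical axis (log scale); points are shifted slightly so that equal values can be seen, and the dashed line separates sums under and over 8. The 72 cells left of the line have 1 cell with at least 4 C1q UMIs, and the 176 cells to the right have 140.

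A further 15 of the 176 marker-rich cells held at least 8 UMIs of *Epcam*, an adhesion molecule of epithelial cells. They numbered 4, 5, 4 and 2 in mice 1 to 4, or 12.9%, 12.2%, 5.41% and 6.67% of the marker-rich cells. Their median depth was 36652 UMIs against 13476 UMIs in the other marker-rich cells, and 8 of the 15 were C1q-positive. Of the 15, 4 had a marker sum of exactly 8 and 0 C1q UMIs, 1 in mouse 1 and 3 in mouse 2, so that these were all of Δ/Δ mice. The part of cells of mixed content in the results was not tested, and the 161 marker-rich cells with fewer than 8 *Epcam* UMIs are given as a further alternative.

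Leukocyte genes that the rule did not use marked the marker-rich cells. All 12 genes of a leukocyte list exceeded 10 CPM there, and their summed level was 3168, 3468, 4374 and 4134 CPM in mice 1 to 4, against 47.0 to 74.7 CPM in the other cells. *Coro1a*, an actin regulator of leukocytes, was found in 96.0% of marker-rich cells and in 2.96% of the other cells. *Laptm5*, a lysosomal protein of blood cells, was found in 95.5% against 2.48%, and *Spi1*, which encodes the myeloid transcription factor PU.1, in 92.6% against 1.12%. Shares as low as those in the other cells are read as background, since free RNA gives UMIs in cells that lack a gene.

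The macrophage programme was carried by most marker-rich cells in every mouse. *C1qb* stood at 2105, 2075, 2201 and 2814 CPM in mice 1 to 4 and was found in 81.2% of marker-rich cells, against 4.48% of the other cells. *C1qa* stood at 1425, 1361, 1516 and 1988 CPM (76.7% against 3.44% of cells), and *C1qc* at 1402, 1421, 1424 and 1964 CPM (80.1% against 3.15%). For all 3 chains mouse 4 was highest and the other 3 mice lay close together. *Csf1r*, the receptor for the macrophage growth factors, stood at 419, 433, 479 and 532 CPM, while its ligand genes *Csf1* and *Il34* gave only 11 and 6 UMIs over all 176 cells. *Adgre1*, which encodes the macrophage antigen F4/80, stood at 134, 136, 172 and 188 CPM. *Cx3cr1*, the fractalkine receptor, varied more widely, at 605, 391, 229 and 762 CPM, with mouse 3 lowest.

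C1q-positive cells, defined by at least 4 UMIs of the 3 C1q genes together, made up 140 of the 176 marker-rich cells and numbered 25, 30, 61 and 24 in mice 1 to 4. Of the 6247 other cells, 2 reached that sum. *C1qb* and *C1qc* lie side by side on chromosome 4 of GRCm38, and their promoters are shown because these genes define the main macrophage class. RefSeq holds entries for both in GRCm38.p6, on the minus strand, and each 250-base stretch before the start site contains 1 ACTTCCT, in capitals, the reverse complement of AGGAAGT, a core site of PU.1 and other ETS factors. The *C1qa* promoter is not shown.
*C1qb* promoter, chr4:136886201-136886450: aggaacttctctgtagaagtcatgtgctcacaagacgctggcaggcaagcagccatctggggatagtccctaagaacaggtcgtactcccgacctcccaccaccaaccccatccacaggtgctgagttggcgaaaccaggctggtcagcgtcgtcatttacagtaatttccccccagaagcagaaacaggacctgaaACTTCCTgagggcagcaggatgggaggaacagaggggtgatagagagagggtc
*C1qc* promoter, chr4:136892915-136893164: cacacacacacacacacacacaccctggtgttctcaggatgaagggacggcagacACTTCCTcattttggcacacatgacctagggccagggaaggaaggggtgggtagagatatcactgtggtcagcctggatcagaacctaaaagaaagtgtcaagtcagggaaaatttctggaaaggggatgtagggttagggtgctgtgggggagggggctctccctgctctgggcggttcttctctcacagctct

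The match lies 46 bases before the start in *C1qb* and 188 bases before it in *C1qc*. Searching both strands, the same 7 letters occurred in 2525 of 32851 mouse promoters of that length, or 7.69%, so that a match describes the sequence and does not show binding.

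Other macrophage functions were likewise found in all mice. *Mrc1*, the mannose receptor, stood at 613, 633, 543 and 642 CPM, and *Pf4*, a chemokine gene of resident macrophages, at 2476, 2289, 2795 and 2094 CPM. *Lyve1*, a hyaluronan receptor of perivascular macrophages, was found in 25.0% of marker-rich cells at 222, 227, 43.0 and 222 CPM, so that mouse 3 stood far below the other 3. *Apoe*, the apolipoprotein through which macrophages export lipid, reached 8734, 7670, 11610 and 15968 CPM, with both f/f mice above both Δ/Δ mice. Lysosomal genes summed to 7818, 7936, 9284 and 10734 CPM over 14 genes, in the same order of genotypes. *Trem2*, a lipid-sensing receptor that signals through Tyrobp, stood at 96.9, 96.3, 88.6 and 276 CPM, with mouse 4 alone high.

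**Figure D2:**
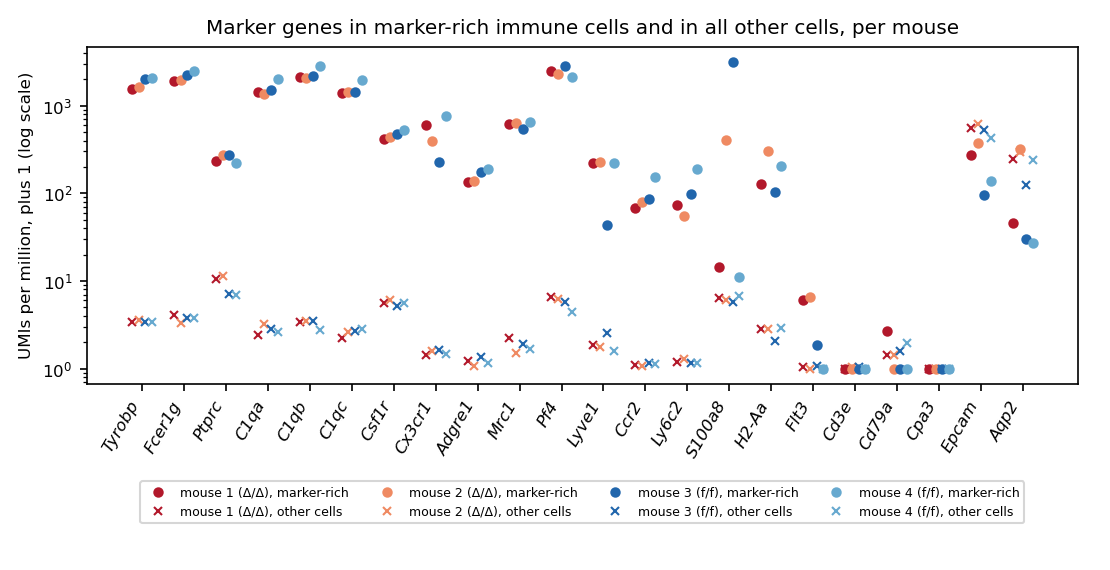
Levels of marker genes (CPM plus 1, log scale) in the marker-rich cells (circles) and the other cells (crosses) of each mouse. The C1q genes lie between 1361 and 2814 CPM in the marker-rich cells of all 4 mice, *S100a8* ranges from 10.0 to 3119 CPM, and *Cd3e* and *Cpa3* lie at 0.

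Transcripts of other blood lineages were looked for in the marker-rich cells, whose selection favoured cells with *Tyrobp* and *Fcer1g* (medians of 31 and 36 UMIs per cell, against 4 for *Ptprc*), so that lymphocytes without these adaptors could hardly enter. No UMI of *Cd3e*, *Cd3g* or *Cd3d* of T cells, *Ms4a1* of B cells, *Nkg7* or *Ncr1* of natural killer cells, *Cpa3* or *Mcpt4* of mast cells, *Xcr1* or *Ccr7* of dendritic cells, or *Gp9* of megakaryocytes was counted in the 176 marker-rich cells, and 0 of 176 cells allows a share of cells with a UMI of up to 1.70% by counting error alone. Other genes of the lymphoid list were counted: 10 of its 18 genes were at 0, while 43 of the 176 cells held at least 3 UMIs of the list. The list summed to 95.2, 193, 112 and 72.0 CPM in the marker-rich cells of mice 1 to 4, against 99.2 to 159 CPM in the other cells and 116 CPM in free RNA. *Cd79b*, a chain of the B cell receptor complex, stood at 38.4, 66.0, 59.9 and 52 CPM, above its 7.37 CPM in the other cells, although its partner *Cd79a* gave 1 UMI. *Rora*, a nuclear receptor, stood at 15.9 CPM against 27.9 CPM in the other cells, and *Gata3*, also a gene of the ureteric epithelium, at 40.2 CPM against 85.5 CPM and 365 CPM in marker-poor cells. Of the 8 genes of the dendritic cell list, only 2, *Xcr1* and *Ccr7*, were at 0 in the marker-rich cells. This dendritic list summed to 26.2 CPM over all marker-rich cells, against 6.81 CPM in the other cells and 4.72 CPM in free RNA. At least 3 UMIs of it were found in 4 of the 176 cells. Class II antigen presentation genes summed to 780.3, 1691, 784 and 1102 CPM in mice 1 to 4, with at least 3 of their UMIs in 73 of the 176 cells. The class II chain *H2-Aa* gave 522 UMIs in 12 cells and *H2-Eb1* 375 UMIs in 13, whereas the invariant chain *Cd74* was counted in 78 cells and *H2-DMa* in 101; *Cd209a*, a lectin of dendritic cells, gave 25 UMIs. Haemoglobin transcripts were counted in all 176 cells, but *Hbb-bs*, at 577, 7749, 3077 and 3494 CPM, was below its 17886 CPM in the free RNA of 353040 barcodes of 10 to 100 UMIs, and 1 cell held 85.3% of the *Hbb-bs* UMIs of mouse 4.

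Neutrophil genes came from a few cells of uneven origin, and monocyte genes from more cells in all mice. *S100a8* and *S100a9*, the calgranulins of neutrophils and monocytes, stood at 13.4, 409, 3119 and 10.0 CPM and at 15, 271, 3879 and 2 CPM in mice 1 to 4. At least 3 UMIs of the 11 neutrophil genes were found in 18 of the 176 cells. *Ngp*, a granule protein of immature neutrophils, was counted in 3 cells, all of mouse 3, and 1 of them held 59.6% of its UMIs. *Camp*, another granule gene, was counted in 2 cells of mouse 3. The 8 monocyte genes summed to 785, 1198, 1237 and 1226 CPM, with at least 3 of their UMIs in 72 of the 176 cells. Much of this sum was *Plac8*, at 501 CPM in mouse 3 and a mean of 639 CPM in the other 3 mice. *Plac8* was not restricted to immune cells, at 89.9 and 86.2 CPM in the other cells of the same mice. *Ly6c2* and *Ccr2*, a surface antigen and the chemokine receptor of inflammatory monocytes, were more even, at 73.5, 53.7, 97.0 and 188 CPM and at 66.8, 78.4, 84.3 and 154 CPM.

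Mouse 3, a *Trim28* f/f embryo with the largest number of cells, stood apart from the other 3 mice, which bears on every comparison of genotypes below. How many of all genes were highest or lowest in mouse 3 was not counted. By rank alone some genes of any list are highest or lowest in each mouse. The counts of list genes below therefore have no background beside them and only describe the lists. In the marker-rich cells all 12 genes of a glycolysis and hypoxia list were higher in mouse 3 than in each other mouse, with summed levels of 4311, 4674, 7407 and 4276 CPM. In the other kidney cells of mouse 3 all 12 were again the highest, with sums of 4605, 4879, 9288 and 4476 CPM, so that this difference was not restricted to immune cells. *Bnip3*, a hypoxia-induced gene of mitochondrial turnover, stood at 66.8, 60.5, 347 and 54.0 CPM in the marker-rich cells.

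Iron and heme genes differed in mouse 3 in the immune cells without a matching shift elsewhere. Of 8 genes, 7 were highest in mouse 3 in the marker-rich cells and 2 in the other cells, with sums of 10249, 8877, 23264 and 13614 CPM in the marker-rich cells and 4375, 4006, 3606 and 3514 CPM in the other cells. *Hmox1*, heme oxygenase, stood at 323, 117, 806 and 324 CPM, and in mouse 1 a single cell held 59.6% of its UMIs. *Fth1*, the ferritin heavy chain, stood at 4216, 3584, 11883 and 6060 CPM. *Spic*, the transcription factor of heme-recycling macrophages, stood at 40.1, 19.3, 167 and 38.0 CPM and was found in 48.6% of the marker-rich cells of mouse 3, against 13.3% to 22.6% in the other mice.

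Some inflammatory and stress genes were also highest in mouse 3. Of 19 chemokine and cytokine genes, 8 were highest and 4 lowest in mouse 3 in the marker-rich cells; *Ccl2*, a monocyte chemokine gene, was among the lowest, at 78.5, 162, 23.6 and 102 CPM. *Il1b*, which encodes the cytokine interleukin 1 beta, stood at 5.01, 6.88, 396 and 14 CPM and was found in 45.9% of the cells of mouse 3. *Atf3*, a stress-induced transcription factor, stood at 5.01, 23.4, 307 and 14 CPM, and the heat shock gene *Hspa1a* at 16.7, 33.0, 296 and 2 CPM. In the list of immediate early and heat shock genes, 6 of 10 were highest and 1, *Egr1*, lowest in mouse 3 in the marker-rich cells, and 7 of 10 were highest in the other cells.

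Interferon-response genes went the other way. Of 11 genes, 9 were lowest in mouse 3 in the marker-rich cells and 7 in the other cells, with sums of 1632, 2450, 886 and 2456 CPM in the marker-rich cells. *Isg15*, a ubiquitin-like protein induced by interferon, stood at 339, 629, 132 and 450.0 CPM. *Ccl12*, a monocyte-attracting chemokine, stood at 369, 388, 29.5 and 386 CPM. Of 10 resident macrophage genes, 7 were lowest and 2, *Pf4* and *F13a1*, highest in mouse 3, and their sum in mouse 3 lay within that of the others, at 5006, 4853, 4861 and 4824 CPM. What sets mouse 3 apart was not tested, and the pool holds no second measurement of it.

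**Figure D3:**
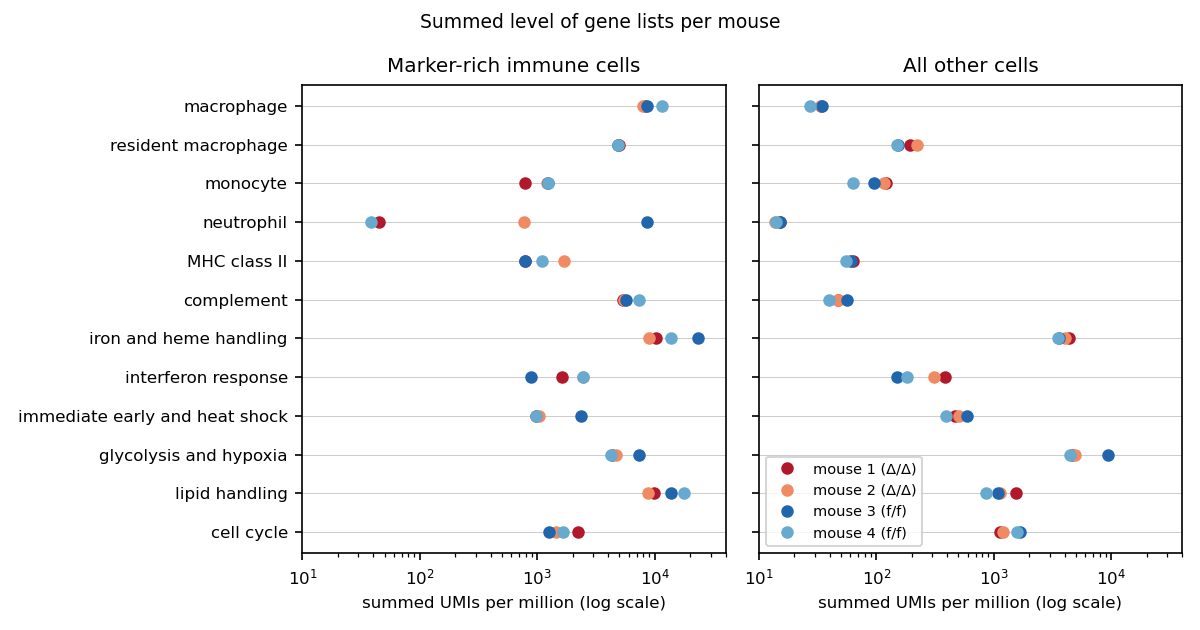
Summed level of gene lists (CPM, log scale) in the marker-rich immune cells and in all other cells, 1 point per mouse. Mouse 3 is highest for glycolysis and hypoxia in both kinds of cells (7407 and 9288 CPM) and for iron and heme handling in the immune cells (23264 CPM), and lowest there for the interferon response (886 CPM).

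Clustering of the 248 cells gave 13 clusters, 4 of which lacked at least 1 mouse; at a resolution of 0.5 it gave 8 clusters, 0 of which lacked a mouse, and at 1.5 it gave 15, of which 6 did. Their genes describe them and were not tested. Cluster 7, of 22 cells (10, 7, 0 and 5 in mice 1 to 4), was led by *Lyve1*, *Ccl12*, *Folr2*, *Cd163*, *Mrc1* and *Pf4*, with 5 resident macrophage markers among its top 10 genes, and is called resident macrophage-like. All 22 of its cells were C1q-positive. Cluster 4, of 21 cells (4, 12, 1 and 4), was led by the chemokine genes *Ccl12* and *Ccl2* together with *Isg15* and the replication gene *Pcna*, and 20 of its cells were scored as cycling.

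Mouse 3 supplied most cells of 4 clusters and none of cluster 7. Resident macrophage markers were not particular to cluster 7, however. Of 10 such markers, 10 were raised against the remaining cells in clusters 7 and 4, 9 in cluster 12 and 7 in cluster 0. Cluster 2, of 30 C1q-positive cells (1, 2, 24 and 3), was led by haemoglobin genes, *Il1b*, *Fabp5* and *Thbs1*. Cluster 12, of 16 C1q-positive cells (0, 1, 14 and 1), was led by *Penk*, *Ccl4* and *Tcf21*, of which *Tcf21* and *Penk* are genes of stromal cells, and in mouse 3 a single cell held 98.1% of the *Penk* UMIs. Cluster 0, of 23 cells (3, 3, 14 and 3), all cycling and C1q-positive, was led by *Rgs1*, *Marco*, *Atf3* and *Gdf15*. Cluster 3, of 24 cells (2, 5, 13 and 4), was led by *S100a9*, *Ngp*, *S100a8* and *Ly6c2*, with 8 of 8 monocyte and 7 of 11 neutrophil markers raised and 3 C1q-positive cells, and is left unnamed between both classes.

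Smaller or mixed clusters completed the set. Cluster 5, of 9 cells (2, 4, 2 and 1), was led by the class II genes *H2-Aa*, *H2-Eb1*, *Cd74* and *H2-Ab1* and by *Cd209a*, and cluster 11, of 8 cells (3, 0, 0 and 5), by *Cfb*, *Ccl7* and *Ccr2*. Genes of endothelium led the 6 cells of cluster 10. The marker-poor cells made up 28 of 30 cells of cluster 1, led by *Aqp2*, 15 of 19 of cluster 6, led by *Slc12a1*, the sodium transporter of the loop of Henle, all 16 of cluster 8, led by *Aard*, *Klk1* and *Ecrg4*, and 13 of 24 of cluster 9, led by *Sult1d1* and *Ube2c*. Clusters 1, 6 and 8 have epithelial leading genes. The leading genes of cluster 9 were mostly of the cell cycle, such as *Ube2c* and *Cenpf*, 22 of its 24 cells were cycling and 9 were C1q-positive. None of the 4 was given an immune name.

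**Figure D4:**
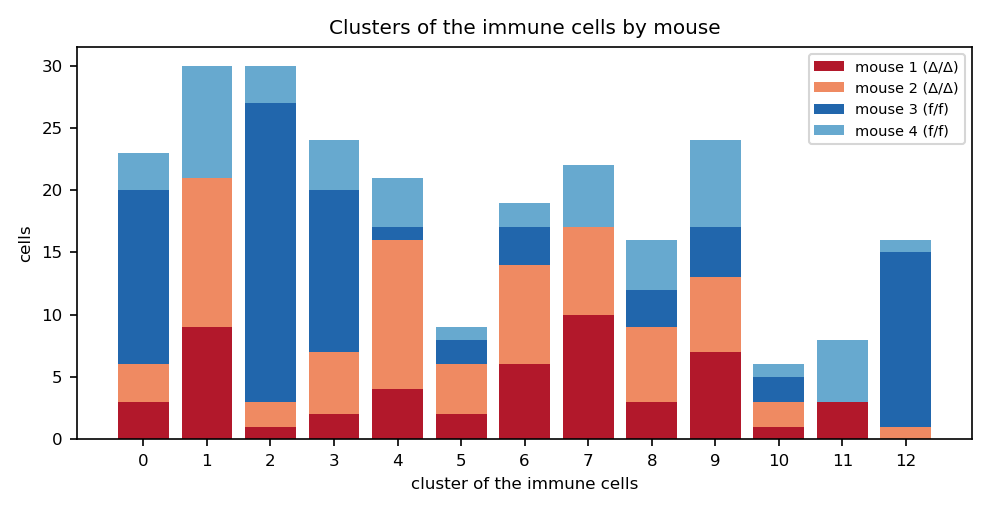
Number of cells of each mouse, stacked, in clusters 0 to 12 of the 248 cells. Mouse 3 contributes 24 of the 30 cells of cluster 2 (haemoglobin genes and *Il1b*), 14 of the 16 of cluster 12 (*Penk*, *Ccl4* and *Tcf21*) and 0 of the 22 of cluster 7 (resident macrophage-like).

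The share of immune cells among all assigned cells addresses whether the mutant kidneys held more of them. It was 4.37% in mouse 1 (exact 95% binomial interval 3.27% to 5.70%), 5.28% in mouse 2 (4.12% to 6.64%), 3.21% in mouse 3 (2.56% to 3.98%) and 3.17% in mouse 4 (2.35% to 4.16%). Means were 4.82% ± 0.64 in Δ/Δ and 3.19% ± 0.03 in f/f (SD, n = 2 each), which differ by 1.63 percentage points without overlap of the mice (two-sided exact permutation test, p = 0.333, the smallest p that 2 against 2 mice allow). Without mouse 3 the difference was 1.66 points. Without the marker-poor cells the shares were 2.65%, 3.18%, 2.97% and 1.94%, the genotypes overlapped and the difference was 0.46 points (exact permutation p = 0.667). Without *Epcam* cells as well it was 0.24 points (exact permutation p = 1). The marker-poor cells themselves made up 1.71%, 2.09%, 0.24% and 1.23% of the assigned cells, so that they supplied 1.17 of the 1.63 points, or 0.68 of the 1.66 points without mouse 3. The intervals cover counting error only, and a share of captured cells depends on dissociation.

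C1q-positive cells made up 49.0%, 44.1%, 76.2% and 51.0% of the immune cells of mice 1 to 4, which gave a difference of -17.1 percentage points between Δ/Δ and f/f (exact permutation p = 0.333). Without mouse 3 the difference was -4.45 points. Among marker-rich cells the shares were 80.6%, 73.2%, 82.4% and 80%, overlapping between genotypes, with a difference of -4.31 points (exact permutation p = 0.667). Without *Epcam* cells as well they were 81.5%, 80.6%, 82.9% and 82.1%, a difference of -1.48 points (exact permutation p = 0.333).

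Cycling cells, scored as S or G2/M phase from cell cycle genes, made up 45.1% and 47.1% of the immune cells of the Δ/Δ mice and 36.2% and 36.7% in the f/f mice, which gave a difference of 9.59 percentage points (exact permutation p = 0.333). Without mouse 3 it was 9.34 points, and with a marker sum of at least 2 it was 0.42 points with overlapping genotypes (exact permutation p = 1). In that wider set only 19.5%, 19.6%, 36.3% and 23.1% of the cells of mice 1 to 4 were C1q-positive. Among marker-rich cells the shares were 51.6%, 53.7%, 35.1% and 40%, a difference of 15.1 points, again without overlap and at the same smallest p. Without *Epcam* cells as well they were 48.1%, 58.3%, 34.3% and 35.7%, a difference of 18.2 points (exact permutation p = 0.333). With every cell thinned to 6800 UMIs the shares were 47.1%, 44.1%, 38.8% and 38.8%. In the other kidney cells the order was the opposite, at 32.6%, 35.9%, 38.8% and 53.8%. None of 10 cell cycle genes passed the expression test in the immune cells; *Mki67*, a proliferation marker, stood at 282, 194, 217 and 278 CPM in marker-rich cells. Phase calls also read free RNA, whose part in them was not tested.

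**Figure D5:**
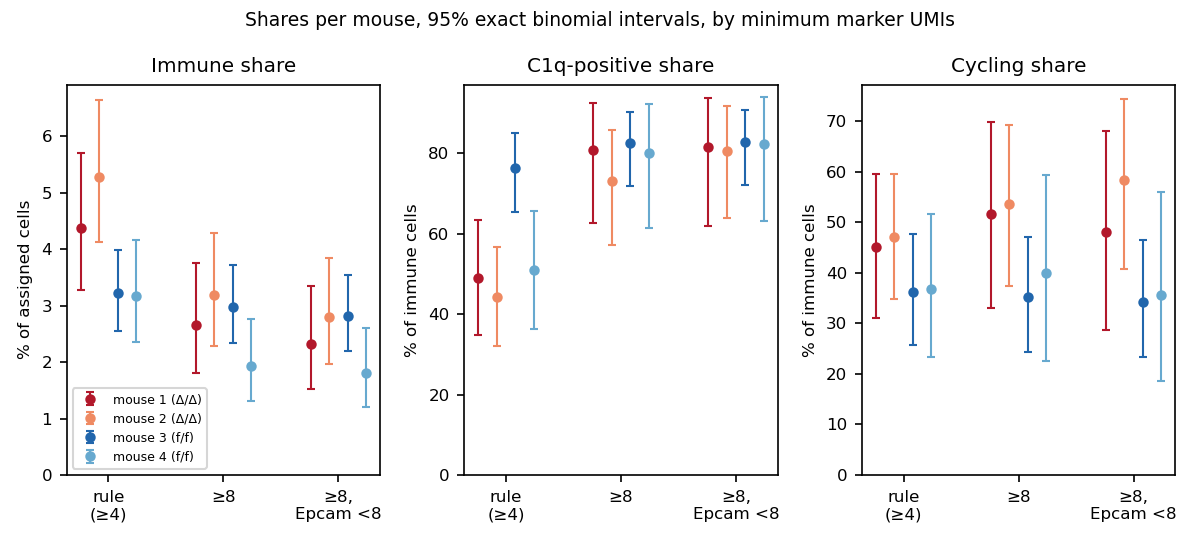
Immune share (percent of assigned cells), C1q-positive share and cycling share (both percent of immune cells) in each mouse with exact 95% binomial intervals, for all 248 cells, the 176 marker-rich cells and the 161 of these with fewer than 8 *Epcam* UMIs. The immune shares of the genotypes lie apart in the first set (4.37% and 5.28% against 3.21% and 3.17%) and overlap in the other 2.

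Gene expression in the immune cells was compared between Δ/Δ and f/f from UMIs summed per mouse, with edgeR's quasi-likelihood test and Benjamini-Hochberg adjustment. Over all 248 cells, 1 of 10469 genes passed an adjusted p of 0.05, a background of 0.00955%, and 672 had an unadjusted p under that value (6.42%). The gene was *Gm11100* (ENSMUSG00000079357), a transcript of unassigned function, at a log2 change of 4.46 (SE 0.29, adjusted p = 0.0457). Its level in the marker-rich cells was 58.5, 6.88, 5.06 and 4 CPM, while in the other cells it was 135, 177, 6.97 and 9.86 CPM and in the marker-poor cells together 116 CPM. In the test on marker-rich cells 0 of 7718 genes passed edgeR's adjusted threshold, 478 had an unadjusted p under 0.05 (6.19%), and *Gm11100* was below the count filter. Without *Epcam* cells as well 0 of 6145 genes passed in edgeR, with 285 at an unadjusted p under 0.05 (4.64%).

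The genes next in order over all 248 cells did not pass (edgeR adjusted p = 0.731 for each). Each of those named here passed in at least 1 alternative fit, which include fits without 1 mouse. The genes were picked by their p over all cells, and the fits reuse the same mice and many of the same cells. Counts of fits are therefore no separate support. *Meg3* did so in 4, *Sprr2f* in 3, *Rian*, *Ly6c2* and *Trem2* in 2 each and the others in 1 each. Above in Δ/Δ were *Meg3* (log2 4.12) and *Rian* (4.54), neighbouring imprinted non-coding RNAs, then *Sprr2f* (2.71), *Rmst* (3.11) and *Fam107a* (2.32). In the other cells *Meg3* stood at 324, 265, 65.1 and 35.5 CPM, and in the marker-rich cells at 145, 140.3, 28.7 and 16.0 CPM, against 129 CPM in free RNA. With the marker-poor cells removed, *Meg3* was at log2 2.42 and *Rian* at 3.09 (edgeR adjusted p = 0.441 for each) and *Sprr2f* at 0.037, and with *Epcam* cells removed as well *Meg3* was at 0.78; the others were below the count filter. *Meg3* over all cells passed edgeR with a marker sum of at least 2 (adjusted p = 0.0301), without mouse 3 (adjusted p = 0.00069) and without mouse 4 (adjusted p = 0.000857), and it passed DESeq2 (adjusted p = 1.05e-13). *Rian* passed edgeR with a marker sum of at least 2 (adjusted p = 0.045) and without mouse 4 (adjusted p = 0.00578). Below in Δ/Δ were genes of myeloid cells: *Ly6c2* (-1.81), the scavenger receptor gene *Cd36* (-1.43), *Trem2* (-1.43), the survival gene *Bcl2a1b* (-1.29) and *Ccr2* (-1.39). With the marker-poor cells removed, these 5 were at -1.25, -0.90, -0.97, -0.72 and -0.79, and with *Epcam* cells removed as well at -0.29, -0.52, -0.62, -0.29 and -0.18. *Ly6c2* over all cells passed DESeq2 (adjusted p = 0.0338) and edgeR without mouse 4 (adjusted p = 0.00319).

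None of the gene lists held a gene that passed edgeR over all 248 cells or in the marker-rich cells. DESeq2 over all cells called 5 genes of the lists, beside 10 of all 3568 genes it tested (3 higher and 7 lower in Δ/Δ). Over all 248 cells the median log2 change was -1.22 for 12 leukocyte genes, -1.06 for 12 macrophage genes and -0.89 for 14 lysosomal genes, beside 0.003 over all 10469 genes tested, while marker-poor cells made up 20 of 51, 27 of 68, 6 of 80 and 19 of 49 immune cells in mice 1 to 4, so that mouse 3 alone had a low share. Among marker-rich cells the same medians were -0.48, -0.38 and -0.47, beside 0.009 over all genes. For the C1q chains the log2 change was -1.10, -1.04 and -1.02 over all cells, -0.45, -0.38 and -0.38 in marker-rich cells and -0.09, -0.02 and -0.01 without *Epcam* cells, in the order *C1qa*, *C1qb* and *C1qc*. For these genes the difference between genotypes thus fell as cells with epithelial transcripts were removed.

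*Fabp5*, *Apoe* and *Fth1* had lower values in Δ/Δ in all 3 sets of cells but did not pass edgeR with all 4 mice. *Lpl*, a lipase of the lipid list, was at log2 0.39, 0.90 and 1.17. Without mouse 3 the f/f arm is mouse 4 alone, which is assumed to vary like the Δ/Δ mice and was itself highest for *Apoe* and *Trem2*. That fit called 5 genes lower in the marker-rich cells, namely *Trem2*, *Spp1*, *Fabp5* (log2 -1.46, adjusted p = 0.0247), *Apoc1* (-2.66, adjusted p = 0.00938) and *Apoe* (-1.01, adjusted p = 0.00843), and the median of 8 iron genes went from -0.77 to -0.35. *Fabp5*, a fatty acid binding protein of macrophages, stood at 202, 151, 680 and 470 CPM in marker-rich cells, so that both f/f mice lay above both Δ/Δ mice. Its log2 change was -2.19 (SE 0.57) over all cells, -1.86 (SE 0.30) in marker-rich cells and -1.78 (SE 0.36) without *Epcam* cells, with edgeR adjusted p of 0.731, 0.441 and 0.654. *Apoe* was at -1.50, -0.87 and -0.53 and *Fth1* at -1.65, -1.36 and -1.15 in the same 3 sets. *Trim28* itself stood at 63.5, 86.7, 71.7 and 98.0 CPM in marker-rich cells and 45.9, 48.0, 104 and 127 CPM in the other cells, against 115 CPM in free RNA. In the immune cells its log2 change was -0.43 over all cells (edgeR adjusted p = 0.731) and 0.043 without marker-poor and *Epcam* cells (adjusted p = 0.996). The counted 3′ end lies outside the floxed segment, so these counts do not show the deletion directly. The paper expects the recombined transcript to be degraded, which would lower them, and this was not tested.

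Single mice decided how many genes passed. Over all cells edgeR called 0 genes without mouse 1 (80 genes, or 0.72%, at an unadjusted p under 0.05) and 0 without mouse 2 (119 genes, or 1.08%). It called 5 (0.0457%) without mouse 3 and 1600 (14.3%) without mouse 4. Among marker-rich cells the counts were 40 (0.444%) without mouse 1, 0 without mouse 2 (306 genes, or 3.85%, at an unadjusted p under 0.05), 7 (0.0854%) without mouse 3 and 320 (3.53%) without mouse 4. In the fit without mouse 4, the lone f/f mouse is mouse 3, which stood apart as described above.

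The difference of the genotype effect between immune and other cells was tested as an interaction, with the mouse as a block. This fit estimates the spread of each gene over the immune and other sums together. Its p-values therefore do not measure the spread among the immune sums alone. Over all 248 cells 0 of 15326 genes passed in edgeR, with 1223 at an unadjusted p under 0.05 (7.98%), and DESeq2 called 52 of the 9383 it tested (0.554%). The smallest p belonged to *Akr1c18*, *Slfn2*, *Apoe*, *Bdh2* and *Entpd1*, with values from -6.95 to -1.72 on the log2 scale (edgeR adjusted p = 0.211), and, on the higher side, to *Rmst*, *Dusp9*, *Hoxd11*, *Serpinf1* and *Meg3*, with values from 1.23 to 3.33 (adjusted p from 0.222 to 0.349). Alternative fits, which include those without 1 mouse, called *Entpd1* in the same direction in 12, *Akr1c18* and *Slfn2* in 10 each and *Bdh2* in 7. They called *Rmst* in 6, *Apoe* and *Meg3* in 5 each and *Dusp9*, *Hoxd11* and *Serpinf1* in 2 each. These genes too were picked by their p, and the fits reuse the same mice, so the counts are no separate support. With the 176 marker-rich cells as the immune cells 180 of 15531 genes passed (1.16%), 75 (0.483%) with a higher and 105 (0.676%) with a lower Δ/Δ effect in immune cells, and with the 161 cells low in *Epcam* 152 of 15374 passed (0.989%). Both sets shared 80 calls in the same direction, or 44.4% of the first and 52.6% of the second. Without mouse 1, 2, 3 or 4 the first set gave 164 (1.01%), 207 (1.28%), 90 (0.564%) or 365 (2.25%) calls. All 4 of these fits kept 19 of the 180, and 6 genes kept their call and direction in both sets and in all 8 fits without a mouse. *Ptprc*, a gene of the rule, was among the 180 and is not read.

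The 6 genes are given with TMM-scaled CPM in mice 1 to 4. *Fabp5* stood at 203, 149, 845 and 499 CPM in the immune cells and at 242, 211, 232 and 226 CPM in the other cells, an interaction of log2 -1.89 (SE 0.27, edgeR adjusted p = 1.26e-05). The other cells hardly varied, so that the interaction followed the level in immune cells. In the edgeR test on immune sums alone, with all mice, *Fabp5* did not pass. *Spp1*, which encodes the secreted matrix protein osteopontin, stood at 72.0, 55.7, 129 and 261 CPM in the immune cells and at 392, 308, 175 and 237 CPM in the other cells, so that the genotypes had opposite order in both kinds of cells (log2 -2.31, SE 0.28, edgeR adjusted p = 5.98e-07). *Sat1*, an enzyme of polyamine breakdown, stood at 409, 349, 1100.4 and 584 CPM against 189, 170, 119 and 113 CPM (log2 -1.72, SE 0.26, edgeR adjusted p = 5.24e-05).

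For the remaining 3 genes the level in immune cells was below that in the other cells in every mouse, except *Nat8* in mouse 4. *Ptn*, a heparin-binding growth factor, stood at 92.1, 137, 49.3 and 59.4 CPM in the immune cells and at 187, 201, 284 and 344 CPM in the other cells (log2 1.76, edgeR adjusted p = 0.000106). *Fabp3*, a fatty acid binding protein of muscle and tubule, stood at 68.6, 50.2, 153 and 72.2 CPM against 344, 301, 179 and 164 CPM (log2 -1.83). *Nat8*, a proximal tubule enzyme, stood at 1.67, 1.36, 5.24 and 8.49 CPM against 54.3, 41.9, 5.88 and 6.09 CPM (log2 -5.08). The marker-rich sums held 598473, 726834, 1185633 and 499993 UMIs, so that the immune levels of *Nat8* rest on very few UMIs. In free RNA these 3 genes stood at 137, 314 and 25.4 CPM. The other cells mix all other kidney cell types. Proximal tubule genes summed there to 2291, 2037, 1096 and 1454 CPM in the same order of mice, and nephron progenitor genes to 50.4, 55.8, 93.5 and 246 CPM. What part the makeup of the other cells has in the interaction was not tested.

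Of the lists, the interaction in marker-rich cells called 4 lipid genes lower (*Fabp5*, *Fabp4*, *Abca1* and *Apoc1*) and *Lpl* higher in Δ/Δ immune cells than the other cells' change gives. These counts stand beside 0.676% of all genes called lower and 0.483% called higher. It called *Hmox1* and *Fth1* of 8 iron genes, *Spp1* and *Igf1* of 10 growth factor genes, *Il1b* and *Cxcl16* of 16 tested chemokine and cytokine genes, and *Ctsc*, *Psap* and *Lgmn* of 14 lysosomal genes, all lower. *Hmox1* was at log2 -1.78 (SE 0.26, edgeR adjusted p = 1.56e-05) and *Il1b* at -5.93 (SE 0.96, adjusted p = 0.000107), both with their highest level in mouse 3. Lower as well were *Atf3*, *Fos* and *Hspa1b* of 10 immediate early and heat shock genes, *Srgn* and *Lcp1* of 12 leukocyte genes, *Isg15* of 11 interferon-response genes, *Hp* of 8 monocyte genes, *Ltf* of 7 tested neutrophil genes and *Fcgr2b* of 12 tested Fc receptor and ITAM genes. *Gata3* of 7 tested lymphoid genes was higher. From lists of other cell types, *Gatm*, *Fbp1* and *Umod* of tubules and *Plvap* of endothelium were lower and the stromal *Dcn* higher. Without mouse 3 the calls of *Atf3*, *Fos*, *Hspa1b*, *Il1b*, *Cxcl16*, *Hp*, *Ltf*, *Fcgr2b*, *Abca1*, *Lpl*, *Gatm*, *Fbp1*, *Umod* and *Dcn* were lost, *Hspa1b* and *Ltf* with a turned direction. With the cells low in *Epcam*, those of *Isg15*, *Lcp1*, *Apoc1*, *Ctsc*, *Psap*, *Fos*, *Gata3*, *Umod* and *Plvap* were lost. *Fabp5*, *Fabp4*, *Hmox1*, *Fth1*, *Spp1*, *Igf1*, *Lgmn* and *Srgn* kept their call and direction in both. Either fit also called genes that the first did not. Without mouse 3 these were *Apoe*, *Ctsd*, *Stab1*, the interferon genes *Bst2*, *Rsad2* and *Ifit1* (4 of 11 with *Isg15*) and *Slc12a3*, all lower, and *Hbb-bt*, *Aqp2* and *Col1a2*, higher. The neutrophil genes *S100a8* and *S100a9* were called higher without mouse 3 (log2 3.81 and 5.45) and lower with the cells low in *Epcam* (log2 -2.05 and -5.62), so that their direction depended on the cells and mice used. With the cells low in *Epcam*, *Lyve1* and *Ccl12* were called higher, and *Retnlg*, *Cd63* and *Hspa1a* lower. Of the lists of kidney, stromal and endothelial cells, that fit also called *Podxl* and *Col3a1* higher and *Slc12a1*, *Slc12a3*, *Egfl7* and *Pecam1* lower. No gene of the macrophage list of 12 or the glycolysis and hypoxia list of 12 passed. *Trim28* was at log2 0.92 (edgeR adjusted p = 0.132) in marker-rich cells and at 1.27 (adjusted p = 0.00793) without *Epcam* cells, where the level in the other cells was lower in Δ/Δ.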

How the data were processed

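The authors counted the reads of 1 pooled 10x Genomics 3′ library and of its tag library, and deposited counts of UMIs for 32285 genes and 12 tags in every barcode, without normalization or selection of cells. The submitters' processing notes name Cell Ranger 6.0.0, Seurat 4.0, R 4.1.0 and GRCm38/mm10, while the header of the deposited count matrix gives version 4 of Cell Ranger. The bulk RNA samples of newborn kidneys were not analysed here.

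Barcodes were filtered and assigned to mice as stated in the report. Cells of several tags or of an unlisted tag stayed out, and no further doublet caller was run. Immune cells summed to 1380729, 1997982, 1408624 and 1215572 UMIs in mice 1 to 4. Sums per mouse were tested with edgeR 4.0.16 (filterByExpr, TMM, glmQLFit and glmQLFTest, R 4.3.3) between genotypes, and in an interaction with the mouse as a block, and with DESeq2 1.42.0 as an alternative. Calls are at a Benjamini-Hochberg adjusted p under 0.05 over all genes tested. Shares were compared with exact two-sided permutation tests over mice (scipy 1.17.1). The labels name separate mice, so p-values measure the spread between 2 mice per genotype. Those of the interaction take the spread of immune and other sums together. Cells were clustered with scanpy 1.11.5 (1500 variable genes, 15 components, 10 neighbours, Leiden resolution 1), and phases were scored with Seurat 5.3.0. Free RNA was read from barcodes of 10 to 100 UMIs of the whole pool, whatever their tag. The scripts were tested on simulated data.

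The 33 gene lists hold 284 genes, of which 282 are in the matrix. Named genes are those of the lists, the genes past the threshold (up to 10 in each direction), the 5 smallest p in each direction where fewer passed, and *Trim28*; *Apoe*, *Fabp5* and the 6 interaction genes kept in all fits were chosen after their values were seen. The members and lists were chosen with earlier results of these data known. Alternatives changed the UMI, tag, mitochondrial and marker thresholds, tag assignment (HTODemux), the gene filter, scaling, the cluster resolution and the mice, and the cell sets by *Epcam* and after thinning were added after seeing the data.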

Additional observations from a re-analysis of the deposited data

Results flagged for a closer look

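Of the 908 barcodes past the quality filter with a marker sum of at least 4 UMIs, 200 carried a single tag that the deposited tag list does not name, beside the 248 with a listed tag. They reach the marker sum in cells outside every comparison above, and their mouse and genotype are not known here. At a sum of at least 8, 572 barcodes passed the filter, 176 with a listed tag and 286 with several tags. The 200 therefore include cells with sums under 8, like the marker-poor cells. Over all cells past the filter, 3603 carried a single unlisted tag.

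With the marker-rich cells as the immune cells, 180 of 15531 genes had a genotype effect that differed between immune and other cells by the interaction test, while over all 248 cells 0 genes did, and with cells of at least 8 *Epcam* UMIs removed 152 did. In the marker-rich cells 105 of the 180 had a lower and 75 a higher effect in immune cells. Without mouse 3 the count was 90 and without mouse 4 it was 365, and 50 and 157 of the 180 were among them in the same direction.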

How the results depend on the processing

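No paired analysis was possible because the 2 genotypes of the pool share no replicate numbers, and the bulk samples, whose labels do, were not analysed here. Immune, C1q-positive and cycling shares kept their direction under all 15, 17 and 16 alternatives (1 of each, leaving out cells high in nephron markers, removed no cell), at differences of 0.242 to 4.49, -29.7 to -1.40 and 0.423 to 18.2 percentage points, but 2 mice per genotype cannot pass an exact test. The 1 gene called between genotypes became 4 with HTODemux, 2 with a marker sum of at least 2 (*Meg3* and *Rian*, without *Gm11100*), 10 with DESeq2 and 0 with sums of at least 8, with *Epcam* cells removed, after thinning, at 5% mitochondrial UMIs, at a top tag of 90%, without the gene filter and with library size only (*Gm11100* was at log2 4.02 to 4.62 in the last 4 of these); without 1 mouse the count ranged from 0 to 1600 (mouse 4). Genes of the lists called were 0, but 1 with HTODemux, 5 with DESeq2 and 0 to 139 without 1 mouse. The 0 calls of the interaction became 180 with sums of at least 8, 152 with *Epcam* cells removed, 175 after thinning, 22 with HTODemux, 73 with sums of at least 2, 2 at 5% mitochondrial UMIs, 117 without the gene filter, 52 with DESeq2 and 8 to 1571 without 1 mouse. The 13 clusters became 8 at resolution 0.5. *Trim28* between genotypes turned to 0.043 with *Epcam* cells removed. In the interaction *Dusp9* turned to -0.69 after thinning and -0.47 with *Epcam* cells removed, and *Meg3* to -0.62, -1.74, -0.11 (sums of at least 8) and -0.15 (top tag 60%). Library size scaling moved the median of all genes to 0.16. Removing *Epcam* cells or marker-poor cells leaves fewer cells; beyond that, the cause was not tested. With 49 to 80 cells per mouse, genes of low level were not measurable.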
